A study of Danio rerio with 16 samples.

Results

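The mitochondrial solute carriers of the slc25 family, with the uncoupling proteins that belong to it, were described across 4 groups of adult zebrafish hearts. Members were all Ensembl identifiers of the deposited table whose zebrafish symbol starts with slc25a or is ucp followed by a digit from 1 to 5, and 37 of 14500 genes met this rule. They comprised 35 slc25 genes and 2 ucp genes and carried 34 different symbols, since slc25a25, slc25a32 and slc25a44 were each the name of 2 identifiers. Symbols came from a reference table that named 11702 of the identifiers. A carrier whose identifier has no symbol there was not analysed here. Every gene of the deposited table reached at least 1.759 of the authors' normalized units in at least 4 libraries, so carriers below that level are absent too.

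As background, carriers of this family are small proteins of the inner mitochondrial membrane that exchange nucleotides, phosphate, carboxylates, amino acids and cofactors between cytosol and matrix. In heart muscle the ADP/ATP carrier and the phosphate carrier supply the ATP synthase and export its product. The carnitine carrier brings in fatty acids as acylcarnitine, and uncoupling proteins are known for proton leak and for the transport of small acids. Most carriers reach the inner membrane through the TOM complex, the small TIM chaperones and the TIM22 complex.

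The 4 groups were wild-type (WT) control hearts, WT hearts 3 days after cryoinjury, and the same 2 conditions in fish carrying the hu3430 allele of tert, the gene of the catalytic subunit of telomerase (labelled Tert (AB/hu3430) KO mutant, here KO). Cryoinjury kills part of the ventricle with a cold probe. Fish were 6 to 9 months old, each group held 4 libraries, and 3 hearts were pooled for the polyadenylated RNA of each library, so no value belongs to a single animal. The title and design of the study set the question of how hearts with and without telomerase respond to injury.

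Recovered reads over all genes ranged from 5611576 to 14831664 per library. As background, hu3430 is a point mutation, so tert reads are no test of the lost protein. They were listed at 1.19 to 1.97 units in WT control, 1.99 to 5.16 in WT cryoinjury, 5.65 to 6.56 in KO control and 6.25 to 6.84 in KO cryoinjury. At a limma adjusted p under 0.05, tert was higher in KO than in WT in control hearts (log2 difference 1.54) and in injured hearts (0.90). After injury it was higher in WT (0.74) and did not pass in KO (0.10). KO cryoinjury libraries 1 and 2 stood apart in the skin keratin gene krt5, at 337 and 887 units against 4.68 to 75.4 in the other 14 libraries, and counts of carriers are therefore also given without them. Of 10 cardiomyocyte marker names 6 were matched, by 7 identifiers. The atrial and ventricular light chain gene myl7 read 21961 ± 1709 units in WT control (SD, n = 4), so the heart muscle marker was abundant in tissue labelled heart. Values are the authors' normalized units, in which reads were scaled by 1 factor per library, and levels were compared within a gene only, because no transcript lengths were used here.

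At 3 days after cryoinjury most carriers that changed were lower. In WT hearts slc25a55b, ucp3, slc25a5, slc25a11 and slc25a39 had the largest falls that passed the test, and slc25a24 and ucp2 were the 2 carriers that rose. In KO hearts slc25a55b, slc25a47, slc25a1a, slc25a29 and slc25a39 had the largest falls that passed, and ucp2, slc25a24 and both slc25a25 genes rose. With limma on log2(value + 1) at an adjusted p under 0.05, 17 of the 37 carriers were lower and 2 higher in WT, where 21.7% of all 14500 genes were lower and 24.2% higher. In KO 14 carriers were lower and 4 higher, against 22.4% and 25.2% of all genes (47.6% in either direction, and 45.9% in WT). Of the carriers 45.9% were lower and 5.41% higher in WT, and 37.8% and 10.8% in KO. Groups did not overlap for 17 lower and 1 higher carrier in WT, beside 20.4% and 22.9% of all genes, and for 15 lower and 3 higher in KO, beside 18.5% and 22.1%. The median log2 change of the carriers was -0.36 in WT and -0.30 in KO, beside -0.01 and -0.02 for all genes. Of the falls, 10 passed in both genotypes, namely slc25a10, slc25a11, slc25a14, slc25a1a, slc25a23a, slc25a3, slc25a38, slc25a39, slc25a5 and slc25a55b, as did the rises of slc25a24 and ucp2. No carrier passed in opposite directions, and 12 passed in neither genotype. The same counts over both genotypes were not made for all genes, so they are not read as particular to the carriers. Without KO cryoinjury libraries 1 and 2 the KO counts were 12 lower and 3 higher, and over all 14500 genes 2483 were then lower and 2963 higher.

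With libraries scaled to their totals and no correction for composition, 10 carriers were lower and 5 higher in WT, and 10 lower and 4 higher in KO. Over all genes 8.46% were then lower and 45.0% higher in WT, and 10.6% and 36.8% in KO. That scaling moved the median change of all genes to 0.30 in WT and 0.20 in KO, and left the carriers' medians at -0.07 and -0.08. None of the 38 called changes turned direction under it. The summed level of the 7 cardiomyocyte marker identifiers moved the same way as the lower carriers. It was 66576 to 76222 units in WT control, 39100.3 to 42647 in WT cryoinjury, 56514 to 70829.9 in KO control and 36066 to 49929.7 in KO cryoinjury. Of these 7, 5 were lower and 1 higher after injury in either genotype. The 8 macrophage identifiers rose in both, with a summed level of 281 to 396 units in WT control and 868 to 1136 in WT cryoinjury. In whole hearts fewer cells of a type and less RNA per cell cannot be told apart, and the part of these cell markers in the carriers' changes was not tested.

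**Figure D1:**
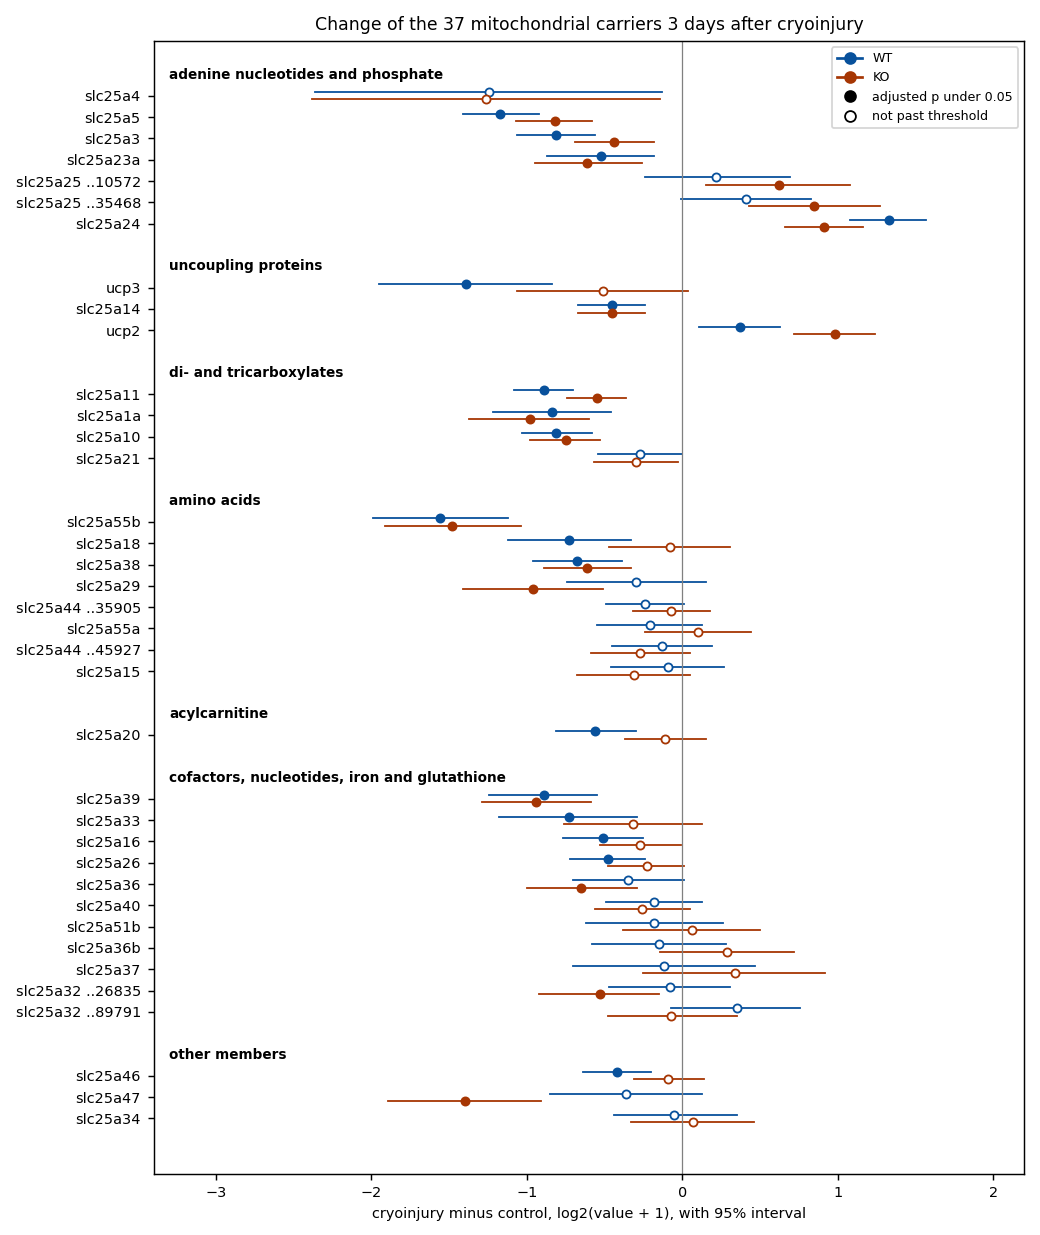
Change after cryoinjury for each of the 37 carriers, as the difference in log2(value + 1) between injured and control hearts with its 95% interval (x axis), in WT (blue) and KO (brown), grouped by transported solutes. Filled points passed an adjusted p under 0.05. Most filled points lie left of 0, and slc25a24 is the rightmost in WT at 1.33.

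**Figure D2:**
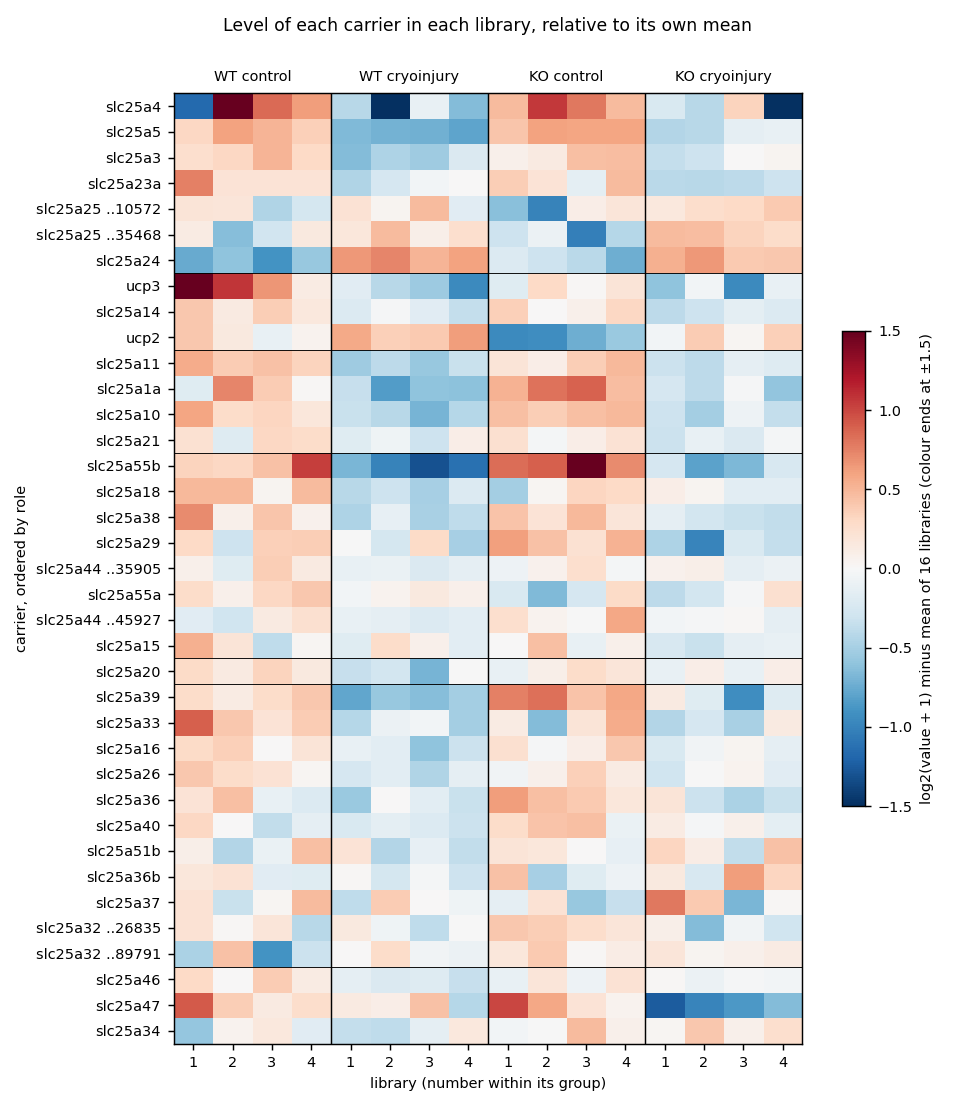
Level of each carrier (rows) in each of the 16 libraries (columns), as log2(value + 1) minus the carrier's own mean over all libraries, on a colour scale that ends at 1.5 in either direction. Injured libraries are mostly blue (lower) and control libraries mostly red (higher), while slc25a24 shows the reverse and ucp2 is bluest in KO control.

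By role the counts are small and stand beside the 21.7% (WT) and 22.4% (KO) of all genes that were lower. Among carriers of adenine nucleotides and phosphate, 3 of 7 were lower in either genotype, and 1 in WT and 3 in KO were higher. The ADP/ATP carrier gene slc25a5 (ENSDARG00000092553), whose product exchanges matrix ATP for cytosolic ADP, read 15371, 18938, 17698 and 15869 units in its WT control hearts, libraries 1 to 4, and 7858, 7605, 7538 and 7161 after cryoinjury. Its KO control libraries read 16528, 18836, 18745 and 18659, and KO cryoinjury 9172, 9283, 11333 and 11483. Every injured library lay below every control library of its genotype. The gene fell from 16969 ± 1650.5 to 7540.5 ± 288 in WT (SD, n = 4; log2 change -1.17, SE 0.11, limma adjusted p = 3.58e-07) and from 18192 ± 1112 to 10318 ± 1262 in KO (-0.82, SE 0.11, limma adjusted p = 1.66e-05). The 4 KO cryoinjury libraries all lay above the 4 WT cryoinjury libraries, at 0.45 on the log2 scale, a difference that did not pass (limma adjusted p = 0.107). It passed at the same size on recovered reads in edgeR (adjusted p = 0.0411), DESeq2 (0.00053) and limma voom (0.0381), and with limma among genes averaging at least 10 units (0.0427). The fall was smaller in KO than in WT by 0.34 on the log2 scale (SE 0.16, limma adjusted p = 0.61), a difference short of the threshold.

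The phosphate carrier gene slc25a3 (ENSDARG00000025566), which imports the phosphate used for ATP synthesis, read 1274, 1329.7, 1519 and 1321 units in WT control and 684, 776, 738 and 918 in WT cryoinjury. In KO it read 1132, 1174, 1459 and 1477 in control and 835, 866, 1072 and 1100.2 in injured hearts, where the groups did not overlap but came close. The falls were -0.81, SE 0.12, limma adjusted p = 2.98e-05 in WT and -0.44, SE 0.12, limma adjusted p = 0.00661 in KO. The KO call ended without KO cryoinjury libraries 1 and 2, where the change was -0.26 (limma adjusted p = 0.138), and with no composition correction (-0.20, limma adjusted p = 0.112).

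Another ADP/ATP carrier gene, slc25a4 (ENSDARG00000027355), read 0.707, 13.3, 5.92 and 4.92 units across WT control hearts, against 1.88, 0.283, 2.55 and 1.44 after injury. Its KO values were 4.35, 7.0, 5.64 and 4.31 and then 2.29, 1.88, 3.84 and 0. These rest on 0 to 101 reads a library. The WT groups overlap, the KO groups do not, and neither change passed (WT -1.24, SE 0.53, limma adjusted p = 0.065, KO -1.26, SE 0.53, limma adjusted p = 0.059). The WT change passed in 4 alternatives, with edgeR on recovered reads (-2.05, adjusted p = 0.0207), with a pseudocount of 10, without WT control library 1 (-1.82, limma adjusted p = 0.00394) and without KO cryoinjury library 4. The KO change also passed in 4, among them the fit of the 8 KO libraries alone (-1.26, limma adjusted p = 0.0248) and the fit without KO cryoinjury library 3 (-1.56, limma adjusted p = 0.0312). The ADP/ATP carriers are close copies of each other, so reads of slc25a4 and slc25a5 could have been split between them by the authors' counting.

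Calcium-regulated carriers exchange ATP-Mg for phosphate and so set the matrix pool of adenine nucleotides, and their genes did not move together. The gene slc25a24 (ENSDARG00000008568) read 8.66, 9.75, 7.72 and 9.97 units in WT control and 24.6, 26, 22.1 and 23.7 in WT cryoinjury, and 13.1, 12.1, 11.3 and 8.82 in KO control and 22.6, 24.6, 20.4 and 20.5 in KO cryoinjury. Every injured library was above every control library of the same genotype, and it rose by 1.33, SE 0.12, limma adjusted p = 1.07e-07 in WT and by 0.91, SE 0.12, limma adjusted p = 7.36e-06 in KO. By contrast slc25a23a fell, from 7.17 ± 1.7 to 4.64 ± 0.814 in WT (-0.52, SE 0.16, limma adjusted p = 0.0141) and from 6.53 ± 1.35 to 3.88 ± 0.162 in KO (-0.61, SE 0.16, limma adjusted p = 0.00565). The WT call ended without WT control library 1 (-0.39, limma adjusted p = 0.0573), without WT cryoinjury library 1 (-0.43, limma adjusted p = 0.0536) and with no composition correction (-0.22, limma adjusted p = 0.267).

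Both genes named slc25a25 belong to this group too. The gene ENSDARG00000035468 read 3.9, 4.71, 1.98 and 3.53 units in KO control and 7.47, 7.37, 6.68 and 6.35 in KO cryoinjury, with no overlap (0.85, SE 0.20, limma adjusted p = 0.00197), and 5.66, 2.9, 3.99 and 5.76 in control against 5.86, 7.46, 5.5 and 6.24 after injury in WT, with overlap (0.41, SE 0.20, limma adjusted p = 0.102). The gene slc25a25 ENSDARG00000010572 read 44.6, 34.2, 74.1 and 78.8 units in KO control and 77.5, 83.5, 85.8 and 91.2 in KO cryoinjury (0.62, SE 0.22, limma adjusted p = 0.028), and control library 4 lay within the injured range. In WT it read 79.6, 78.7, 50.5 and 57.7 in control against 80.8, 71.3, 96.4 and 61.6 after injury (0.22, SE 0.22, limma adjusted p = 0.43). With no composition correction both genes passed as higher in WT, at 0.58 for this one (limma adjusted p = 0.0277) and 0.71 for ENSDARG00000035468 (limma adjusted p = 0.00755). The KO call of slc25a25 ENSDARG00000010572 was lost without KO control library 1 or 2 and without KO cryoinjury library 2, 3 or 4. In these fits its change was 0.40 to 0.62 and the limma adjusted p 0.0503 to 0.112. The same call was also lost without KO cryoinjury libraries 1 and 2 together (0.68, limma adjusted p = 0.0692).

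**Figure D3:**
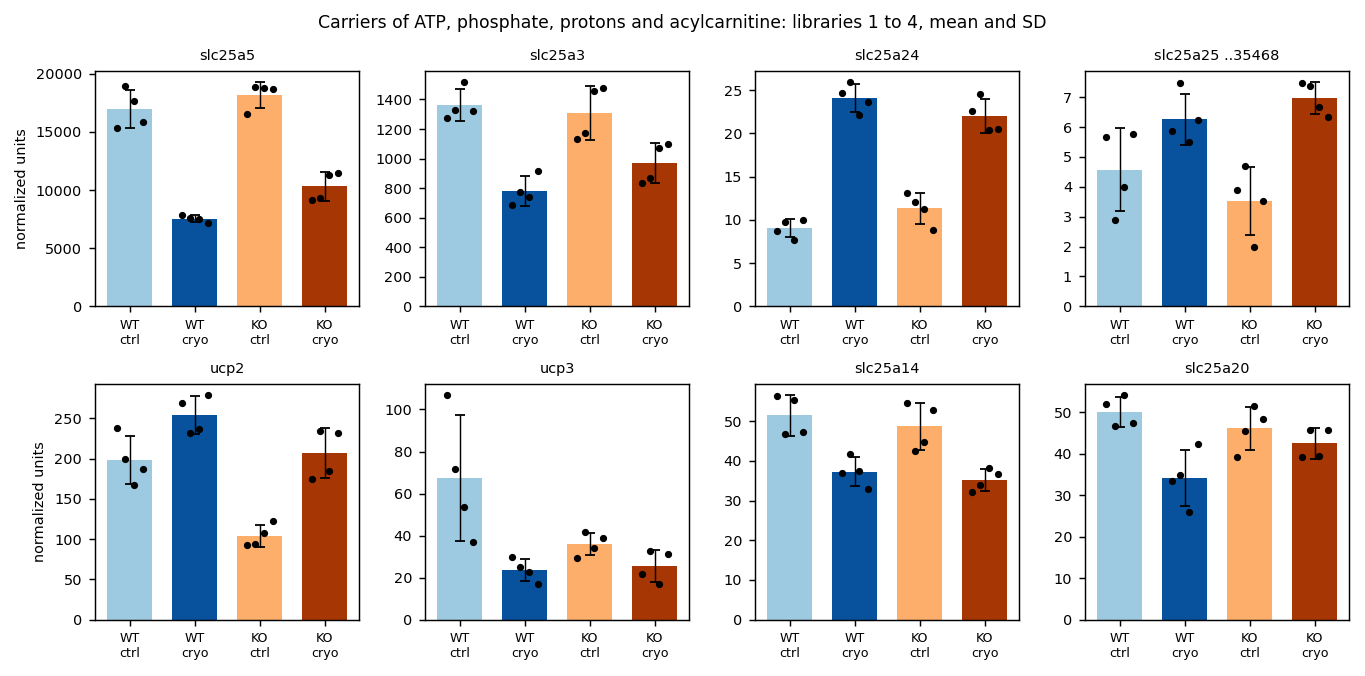
Normalized units (y axis, from 0) of 8 carriers in the 4 groups, with each library as a point, the group mean as a bar and the SD as the error bar (n = 4). In slc25a5 both injured groups lie below both control groups, slc25a24 shows the reverse, and ucp2 is lowest in KO control at 92.5 to 122 units.

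The uncoupling protein genes moved in different directions. The gene ucp2 (ENSDARG00000043154), whose product is broadly expressed in vertebrates and exports small carboxylic acids, read 239, 199.7, 167 and 187 units in WT control and 269, 232, 238 and 279 in WT cryoinjury. In KO it read 92.5, 94.4, 108 and 122 in control and 175, 235, 185 and 232 after injury. The 4 KO control libraries were the lowest of all 16, and the next lowest read 167 in WT control. It rose in KO by 0.98, SE 0.12, limma adjusted p = 6.12e-06, and in WT, where the groups overlapped, by 0.37, SE 0.12, limma adjusted p = 0.0223. The WT call was lost without WT control library 3 or 4 or WT cryoinjury library 1 or 4, where the change was 0.29 to 0.34 and the limma adjusted p 0.0549 to 0.0829.

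The gene ucp3 (ENSDARG00000091209), known from muscle in mammals, read 107, 71.7, 53.7 and 36.8 units in WT control, the most spread group of this gene, and 29.8, 25, 22.7 and 16.9 in WT cryoinjury. KO control hearts read 29.6, 41.6, 34 and 38.6 and KO cryoinjury 21.8, 32.7, 16.9 and 31.1. It fell in WT without overlap (-1.39, SE 0.26, limma adjusted p = 0.000313), and in KO the groups overlapped (-0.51, SE 0.26, limma adjusted p = 0.122). These 2 genes are neighbours on chromosome 10 in the RefSeq annotation of assembly GRCz12tu, without overlapping spans. The gene slc25a14, of a brain-rich uncoupling protein in mammals, fell from 51.4 ± 5.08 to 37.3 ± 3.62 in WT (-0.45, SE 0.10, limma adjusted p = 0.00143) and from 48.6 ± 5.85 to 35.2 ± 2.75 in KO (-0.45, SE 0.10, limma adjusted p = 0.00155), in both without overlap. With no composition correction its changes were -0.10 and -0.22 (limma adjusted p = 0.368 and 0.0647).

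Of 4 carriers of di- and tricarboxylates, 3 were lower in WT and the same 3 in KO. The oxoglutarate carrier gene slc25a11 (ENSDARG00000035741), part of the malate-aspartate shuttle, read 219.5, 195, 203 and 189 units in WT control and 103, 113, 100.2 and 118 in WT cryoinjury (-0.89, SE 0.09, limma adjusted p = 5.75e-07). Its KO values were 171, 161, 194 and 209.6 in control against 119, 114, 136 and 130.4 after injury (-0.55, SE 0.09, limma adjusted p = 0.0001). The citrate carrier gene slc25a1a (ENSDARG00000057110), which supplies citrate for lipid synthesis in the cytosol, read 9.2, 18.2, 14 and 10.7 units in WT control and 8.09, 5.47, 6.58 and 6.54 in WT cryoinjury (-0.84, SE 0.18, limma adjusted p = 0.00103). In KO it read 15.6, 19.2, 20.3 and 14.9 in control against 8.69, 7.81, 10.3 and 6.68 after injury (-0.98, SE 0.18, limma adjusted p = 0.00026). Neither gene's control and injured libraries overlapped within a genotype. The dicarboxylate carrier gene slc25a10 fell from 55.9 ± 7.33 to 31.4 ± 3.44 in WT (-0.81, SE 0.11, limma adjusted p = 8.65e-06) and from 59.5 ± 1.92 to 35.1 ± 4.53 in KO (-0.75, SE 0.11, limma adjusted p = 2.01e-05). The oxodicarboxylate carrier gene slc25a21 did not pass, with changes of -0.27 in WT (95% interval -0.54 to 0.00) and -0.30 in KO (-0.57 to -0.03). It passed in WT without WT control library 2 (-0.39, limma adjusted p = 0.0128) or WT cryoinjury library 4 (-0.34, limma adjusted p = 0.0491), and in KO without KO control library 2 (-0.35, limma adjusted p = 0.0472) or WT control library 2 (-0.30, limma adjusted p = 0.0324).

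Among carriers of amino acids, 3 of 8 were lower in WT, 3 of 8 in KO, and none was higher in either. The largest fall of all carriers that passed was in slc25a55b (ENSDARG00000013749). It read 10.1, 9.88, 10.9 and 17 units in WT control and 4.46, 3.4, 2.55 and 3.06 in WT cryoinjury (-1.56, SE 0.21, limma adjusted p = 8.59e-06), and 14.7, 15.3, 24.1 and 13.3 in KO control and 6.41, 4.05, 4.51 and 6.46 in KO cryoinjury (-1.48, SE 0.21, limma adjusted p = 1.61e-05). Its duplicate slc25a55a (ENSDARG00000020893), for which the RefSeq table lists the glutamate carrier name slc25a22 as a synonym, read 1104, 954, 1129 and 1202 units in WT control and 881, 944, 1006 and 955 in WT cryoinjury. In KO it read 773, 572, 765 and 1112 in control against 691, 748, 896 and 1077 after injury. Its groups overlapped in both genotypes, and the changes were -0.21 in WT (95% interval -0.55 to 0.13, limma adjusted p = 0.307) and 0.10 in KO (-0.24 to 0.44, limma adjusted p = 0.632).

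The glycine carrier gene slc25a38, which feeds heme synthesis in red cell precursors, fell from 30.4 ± 6.89 to 18.4 ± 2.33 in WT (-0.68, SE 0.13, limma adjusted p = 0.000494) and from 30.3 ± 3.31 to 19.5 ± 1.54 in KO (-0.61, SE 0.13, limma adjusted p = 0.00125). The 6 red blood cell markers, whose summed level was 2560.0 to 5684 units in WT control, 1916 to 3999.9 in WT cryoinjury, 2945 to 5255 in KO control and 1466 to 5125 in KO cryoinjury, overlapped between all groups. Of these markers 1 was lower in WT and 0 in KO, and their part in the fall of slc25a38 was not tested. A glutamate carrier gene, slc25a18, read 3.71, 3.69, 2.44 and 3.65 units in WT control and 1.52, 1.7, 1.38 and 1.92 in WT cryoinjury (-0.73, SE 0.19, limma adjusted p = 0.00401), while its KO groups overlapped (-0.08, SE 0.19, limma adjusted p = 0.75). It held 9 to 32 reads a library. The ornithine carrier gene slc25a15 and both genes named slc25a44, of a carrier of branched-chain amino acids in mammals, did not pass in either genotype, with changes of -0.31 to -0.07. Without WT control library 2 the slc25a44 gene ENSDARG00000035905 was lower in WT (-0.34, limma adjusted p = 0.0259).

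The basic amino acid carrier gene slc25a29 (ENSDARG00000057352) read 3.54, 1.98, 3.73 and 3.79 units in WT control and 2.7, 2.08, 3.54 and 1.62 in WT cryoinjury, which overlapped (-0.30, SE 0.21, limma adjusted p = 0.274). KO control hearts read 4.65, 4.04, 3.35 and 4.31 and KO cryoinjury 1.68, 0.867, 2.17 and 1.89, without overlap (-0.96, SE 0.21, limma adjusted p = 0.00129). The gene slc25a47 (ENSDARG00000059923), known from liver in mammals, read 7.6, 4.88, 3.99 and 4.5 units in WT control, 3.99, 3.87, 5.21 and 2.4 in WT cryoinjury, 8.11, 5.79, 4.27 and 3.73 in KO control and 0.915, 1.3, 1.5 and 1.89 in KO cryoinjury. It fell in KO (-1.40, SE 0.23, limma adjusted p = 0.000102) and did not pass in WT (-0.36, SE 0.23, limma adjusted p = 0.223). Its 4 KO cryoinjury libraries were the lowest of all 16. The difference between KO and WT cryoinjury was -1.0 (limma adjusted p = 0.0656), and DESeq2 on recovered reads called it (-1.43, adjusted p = 0.0123). The 2 genes neighbour each other on chromosome 20 in the RefSeq annotation of assembly GRCz12tu, where slc25a47 is listed as slc25a47a and their spans overlap. Whether their transcripts share bases, also in the build Zv9 named by the submitters, was not examined. The library kit named in the labels does not mark strand, so reads from any shared bases could not be told apart. They held 6 to 36 reads a library for slc25a29 and 6 to 54 for slc25a47.

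**Figure D4:**
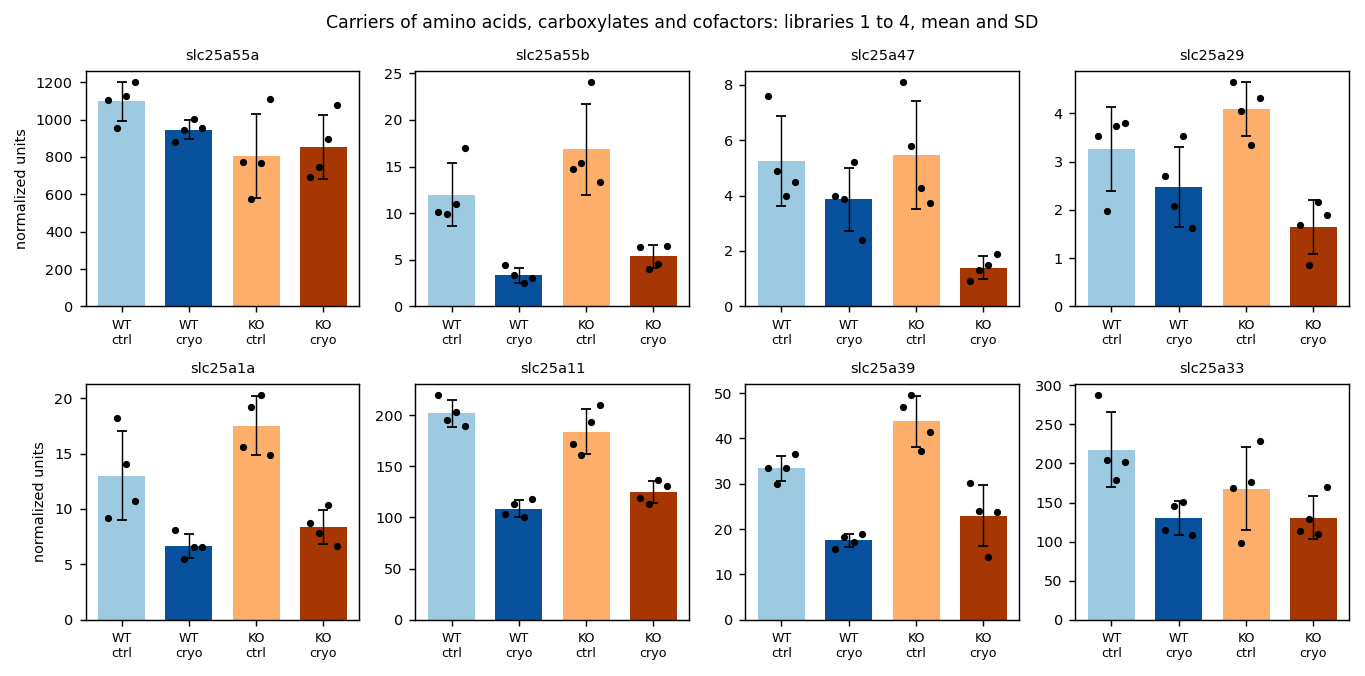
Normalized units (y axis, from 0) of 8 carriers in the 4 groups, with each library as a point, the group mean as a bar and the SD as the error bar (n = 4). Of the duplicates, slc25a55b has both injured groups below both control groups while the groups of slc25a55a overlap, and slc25a47 is lowest in KO cryoinjury at 0.915 to 1.89 units.

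The carnitine-acylcarnitine carrier gene slc25a20 (ENSDARG00000040401), through which fatty acids enter the matrix, read 52, 46.6, 54.1 and 47.3 units in WT control and 33.3, 34.9, 25.9 and 42.3 in WT cryoinjury, without overlap. In KO it read 39.2, 45.4, 51.5 and 48.2 in control against 39.2, 45.7, 39.4 and 45.8 after injury, which overlapped. It fell in WT (-0.56, SE 0.12, limma adjusted p = 0.0012) and did not pass in KO (-0.11, SE 0.12, limma adjusted p = 0.48; 95% interval -0.37 to 0.15). Set against each other, the fall was smaller in KO than in WT by 0.45 (SE 0.17, limma adjusted p = 0.547), also short of the threshold. With no composition correction the WT change was -0.21 (limma adjusted p = 0.157).

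Of 11 carriers of cofactors, nucleotides, iron and glutathione, 4 were lower in WT and 3 in KO, where 22.4% of all genes were lower. The gene slc25a39 (ENSDARG00000007449), needed for glutathione import into mitochondria of mammalian cells, read 33.4, 30.1, 33.5 and 36.7 units in WT control and 15.6, 18.2, 17.2 and 19 in WT cryoinjury (-0.89, SE 0.17, limma adjusted p = 0.000253). In KO it read 47, 49.5, 37.2 and 41.4 in control against 30.2, 24, 13.8 and 23.8 after injury (-0.94, SE 0.17, limma adjusted p = 0.000163), so groups did not overlap in either genotype. The related gene slc25a40 did not pass (-0.18 in WT, 95% interval -0.49 to 0.13, and -0.26 in KO, -0.56 to 0.05), though its KO fall passed without KO control library 4 (-0.38, limma adjusted p = 0.0364).

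The pyrimidine nucleotide carrier gene slc25a33 (ENSDARG00000039931) read 288, 204, 178 and 201 units in WT control and 115, 146, 151 and 108 in WT cryoinjury (-0.73, SE 0.21, limma adjusted p = 0.00872). Its KO values were 169, 98.3, 176 and 228 in control against 114, 129.5, 109.8 and 169 after injury, which overlapped (-0.32, SE 0.21, limma adjusted p = 0.231). Without KO control library 2, the lowest of its group, the KO change was -0.55 and passed (limma adjusted p = 0.0186). With no composition correction the WT change was -0.38 and did not (limma adjusted p = 0.115). The related gene slc25a36 (ENSDARG00000038731) read 32, 28, 27 and 22.9 units in KO control and 23.3, 16.1, 14.3 and 15.8 in KO cryoinjury (-0.65, SE 0.17, limma adjusted p = 0.00454), and 23.5, 28.2, 18.7 and 17.4 in control against 13.5, 20.3, 18.1 and 15.8 after injury in WT (-0.35, SE 0.17, limma adjusted p = 0.103). Its KO groups overlapped in 1 library each, and with no composition correction the KO change was -0.42 (limma adjusted p = 0.0636). Its duplicate slc25a36b read 6.61, 2.96, 3.96 and 4.31 in control against 5.18, 3.76, 7.68 and 6.01 after injury in KO (0.29, SE 0.20, limma adjusted p = 0.251) and 5.3, 5.54, 3.99 and 3.93 in control against 4.69, 3.68, 4.52 and 3.54 after injury in WT (-0.15, SE 0.20, limma adjusted p = 0.573).

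Another 2 cofactor genes were lower in WT alone at this threshold. The S-adenosylmethionine carrier gene slc25a26 went from 26.4 ± 2.89 to 18.6 ± 1.91 (-0.48, SE 0.11, limma adjusted p = 0.00227), and slc25a16, related to a yeast carrier needed for coenzyme A, from 19.9 ± 2.16 to 13.7 ± 2.15 (-0.51, SE 0.12, limma adjusted p = 0.00258). In KO their changes were -0.23 and -0.27 (limma adjusted p = 0.106 and 0.0844; without KO control library 2 slc25a16 passed, at -0.33 and 0.047), and the differences between genotypes did not pass (interaction 0.25 and 0.24, limma adjusted p = 0.716 and 0.738). With no composition correction the WT changes were -0.14 and -0.18 (limma adjusted p = 0.326 and 0.258). Of the genes named slc25a32, after a folate and FAD carrier, slc25a32 ENSDARG00000026835 read 4.95, 4.85, 4.42 and 4.12 units in KO control and 3.81, 1.88, 3.34 and 2.67 in KO cryoinjury (-0.53, SE 0.18, limma adjusted p = 0.0235). In WT it read 4.24, 3.56, 4.12 and 2.39 in control against 3.99, 3.3, 2.46 and 3.48 after injury (-0.08, SE 0.18, limma adjusted p = 0.747). The KO call was lost without KO control library 1 or 2, without KO cryoinjury library 2 or 4 (change -0.51 to -0.39, limma adjusted p 0.0509 to 0.0903), without KO cryoinjury libraries 1 and 2 together (-0.48, limma adjusted p = 0.0751) and with no composition correction (-0.35, limma adjusted p = 0.138). The other, ENSDARG00000089791, read 6.19, 12.5, 4.38 and 7.02 in control against 9.03, 11.1, 8.64 and 8.39 after injury in WT (0.35, SE 0.20, limma adjusted p = 0.161) and 10.2, 12.1, 9.15 and 9.8 in control against 10.4, 9.25, 9.51 and 9.91 after injury in KO (-0.07, SE 0.20, limma adjusted p = 0.801). In WT it passed as higher without WT control library 2 (0.60, limma adjusted p = 0.00307) and with no composition correction (0.66, limma adjusted p = 0.0115).

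The mitoferrin gene slc25a37 (ENSDARG00000073743), the iron importer of developing zebrafish red cells, read 1.98 to 4.21 units in WT control, 1.88 to 3.87 in WT cryoinjury, 1.52 to 3.37 in KO control and 1.33 to 5.49 in KO cryoinjury. All 4 groups overlapped, and neither change passed (-0.12, SE 0.28, limma adjusted p = 0.758 in WT and 0.34, SE 0.28, limma adjusted p = 0.336 in KO). It held 8 to 43 reads a library. The NAD carrier gene slc25a51b likewise did not pass (-0.18 in WT, 95% interval -0.62 to 0.26, and 0.06 in KO, -0.38 to 0.50).

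Of the remaining members, slc25a46, whose product sits in the outer membrane and bears on mitochondrial shape, fell in WT from 16.9 ± 2.11 to 12.3 ± 0.808 (-0.42, SE 0.11, limma adjusted p = 0.00352). In KO it went from 15.2 ± 1.9 to 14.2 ± 0.451 (-0.09, SE 0.11, limma adjusted p = 0.525), and with no composition correction the WT change was -0.09 (limma adjusted p = 0.528). The gene slc25a34 did not pass, with 2.83 ± 0.81, 2.69 ± 0.66, 3.54 ± 0.803 and 3.73 ± 0.584 units in control and injured WT and then control and injured KO hearts.

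Between genotypes, 1 carrier passed. In control hearts ucp2 was lower in KO than in WT, with 92.5 to 122 against 167 to 239 units and no overlap (104 ± 13.9 against 198 ± 30.1, SD, n = 4; -0.92, SE 0.12, limma adjusted p = 0.00145). No carrier was higher in KO control. Over all genes 1.08% were lower and 0.407% higher, so 1 of 37 lower is 2.7% of the carriers. The ucp2 call held in every alternative and without any single library. Its neighbour ucp3 had a KO minus WT difference of -0.79, SE 0.26, limma adjusted p = 0.141 and overlapping groups, and passed in DESeq2 on recovered reads (-0.90, adjusted p = 0.0398). Glutathione carrier slc25a39 was higher in every KO control library than in any WT control library, at 0.38, SE 0.17, limma adjusted p = 0.277, which did not pass, and 3.74% of all genes were higher without overlap. Without KO control library 4 slc25a55a was lower in KO (-0.65, limma adjusted p = 0.0263), and without WT control library 2 the slc25a32 gene ENSDARG00000089791 was higher (0.74, limma adjusted p = 0.0189).

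In injured hearts no carrier passed between genotypes with limma on log2(value + 1), and over all genes 0.29% were higher and 0.152% lower in KO. At an unadjusted p under 0.05 were 7 carriers (18.9%) and 12.2% of all genes. On recovered reads edgeR called 1 carrier, slc25a5, higher, and DESeq2 called slc25a5 higher and slc25a47 lower. With limma, slc25a5 passed under voom and among genes averaging at least 10 units, and slc25a47 with library totals (-1.08, adjusted p = 0.0475). Groups did not overlap for slc25a18, slc25a40, slc25a46 and slc25a5, higher in KO, and for slc25a47, lower in KO, beside 3.84% and 4.01% of all genes. For ucp2 the difference was -0.31, SE 0.12, limma adjusted p = 0.319 (95% interval -0.57 to -0.04). In slc25a5, KO cryoinjury libraries 1 and 2 (9172 and 9283 units) lay nearer the WT cryoinjury values than libraries 3 and 4 (11333 and 11483). In slc25a47 they lay further from them, at 0.915 and 1.3 against 1.5 and 1.89. The edgeR, DESeq2 and voom tests were not run without KO cryoinjury libraries 1 and 2. With them left out, and so fewer libraries in that group, no carrier passed with limma on log2(value + 1), as with all libraries. Over all 14500 genes 4 were then higher and 1 lower in KO, beside 42 and 22 with all libraries. The carriers' median difference was 0.06 without these libraries and 0.14 with them. The difference between the 2 injury responses did not pass for any carrier with limma, edgeR or DESeq2. With limma 10 carriers (27.0%) had an unadjusted p under 0.05, as had 8.21% of all genes. At the adjusted threshold 0 of all 14500 genes passed, where DESeq2 called 17 higher and 3 lower among 8874. Responses that passed in only 1 genotype are therefore not shown to differ. For ucp2 the injury change was larger in KO by 0.61, SE 0.18, limma adjusted p = 0.386, and this contrast, the injury contrast in KO and the genotype contrast in control hearts share the same KO control libraries.

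Genes that share a symbol or its stem were treated as duplicates, which was not tested by sequence. They were compared within libraries, as the difference of their log2(value + 1), with an exact 2-sided permutation of injury status within a genotype. This gave 10 comparisons over 5 pairs, and the smallest p that 4 against 4 libraries allow is 0.0286. For slc25a55a against slc25a55b the injury change of the former was above that of the latter by 1.35 in WT (SE 0.21) and 1.58 in KO (SE 0.35), without overlap in either (exact permutation p = 0.0286 each, adjusted p = 0.0714). For slc25a36 against slc25a36b the difference was -0.94 in KO (SE 0.32, exact permutation p = 0.0286, adjusted p = 0.0714) and -0.20 in WT (exact permutation p = 0.371). For the slc25a32 genes, ENSDARG00000026835 against ENSDARG00000089791, it was -0.46 in KO (SE 0.15, exact permutation p = 0.0286, adjusted p = 0.0714) and -0.43 in WT (exact permutation p = 0.343). The slc25a25 and slc25a44 pairs had differences of -0.23 to 0.20 (exact permutation p from 0.229 to 0.629). No comparison passed after adjustment, and the 4 that reached the smallest possible p stayed at 0.0714. With so few libraries a comparison could pass only if most of the 10 reached that smallest p. The adjusted values therefore cannot decide whether the genes of a single pair differ.

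Other genes of mitochondrial transport were counted in the same way, beside 21.7% (WT) and 22.4% (KO) of all genes lower. All 3 porin genes, the channels of the outer membrane, were lower in WT and 2 of 3 in KO, with medians of -0.68 and -0.48. Of them vdac2 went from 1584 ± 72.8 to 986 ± 44.5 in WT (log2 change -0.68, limma adjusted p = 2.04e-06) and from 1532 ± 108 to 1099 ± 90.7 in KO (-0.48, limma adjusted p = 9.43e-05). The pyruvate carrier, which is no member of the slc25 family, was lower in all 3 of its identifiers in both genotypes (medians -1.04 and -0.79), and mpc1 went from 257 ± 11.6 to 120.1 ± 7.89 in WT (log2 change -1.09, limma adjusted p = 9.69e-09) and from 289 ± 22.9 to 152 ± 9.87 in KO (-0.92, limma adjusted p = 5.23e-08). All 5 carnitine shuttle identifiers, whose products make and use the substrates of slc25a20, were lower in both (medians -0.99 and -0.69). Among them cpt1ab went from 333 ± 42.3 to 146 ± 23 in WT (log2 change -1.18, limma adjusted p = 4.49e-07) and from 326 ± 34.5 to 197 ± 21.2 in KO (-0.72, limma adjusted p = 9.36e-05). The muscle-type gene cpt1b was also lower in KO than in WT control hearts, at 140.4 ± 29.9 against 212 ± 19.9 units (limma adjusted p = 0.0461). That call lies close to the threshold and was not examined with other settings or left-out libraries.

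Enzymes of the malate-aspartate shuttle were lower in 3 of 3 genes in WT and 2 of 3 in KO (medians -0.91 and -0.64), and mdh2 went from 2619 ± 150.5 to 1359.7 ± 25.3 in WT (log2 change -0.94, limma adjusted p = 6.52e-07) and from 2735 ± 211 to 1770.3 ± 262 in KO (-0.64, limma adjusted p = 4.85e-05). Mitochondrial ABC transporters were lower in 3 of 3 and 2 of 3 (medians -0.48 and -0.37), and genes of calcium uptake in 3 of 4 in both (medians -0.45 and -0.34). In the import route that inserts carriers, 7 of 14 genes were lower in WT and 5 in KO, and none was higher (medians -0.31 and -0.25). In that list tomm7 went from 32.2 ± 3.31 to 21.6 ± 2.51 in WT (log2 change -0.56, limma adjusted p = 0.000111) and from 32.9 ± 1.8 to 27.1 ± 1.17 in KO (-0.27, limma adjusted p = 0.0262). Sideroflexins, another family of inner membrane carriers, were split. Of 4 genes 2 were higher and 1 lower in WT, and 1 lower in KO (medians 0.34 and 0.32), and sfxn4 went from 17.9 ± 2.53 to 9.79 ± 1.55 in WT (log2 change -0.81, limma adjusted p = 4.47e-05) and from 17.8 ± 1.86 to 11.8 ± 1.2 in KO (-0.55, limma adjusted p = 0.00155). Of 6 heme synthesis genes 1 was lower in WT, alas1, from 1722 ± 468 to 685 ± 116, and 0 passed in KO. No creatine kinase of mitochondria was matched by symbol. The medians of all genes were -0.01 in WT and -0.02 in KO, and the cardiomyocyte markers had medians of -0.82 and -0.64.

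**Figure D5:**
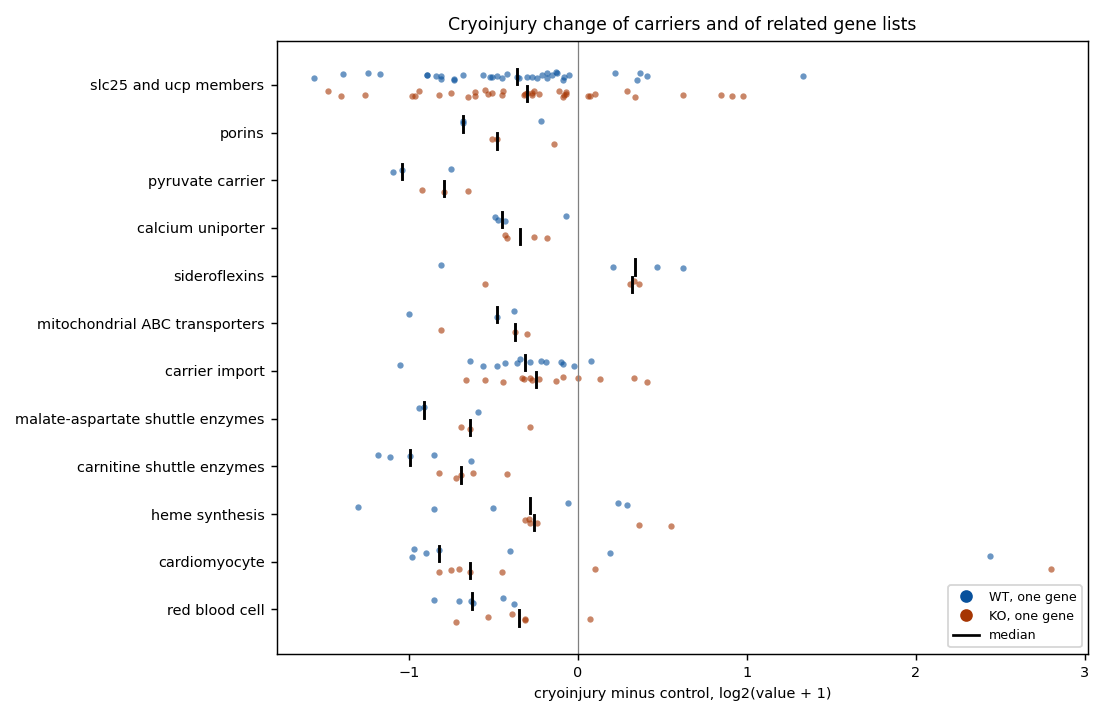
Log2 change after cryoinjury (x axis) of the 37 carriers, of 9 related gene lists and of 2 cell marker lists, with each gene as a point (blue WT, brown KO) and the list's median as a black bar. The pyruvate carrier and carnitine shuttle lists have the lowest medians, at -1.04 and -0.99 in WT, and the carriers spread from -1.56 to 1.33.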

How the data were processed

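The authors deposited 1 table of per-gene signal for 16 libraries of zebrafish heart. Per the submitters' processing notes, CASAVA 1.8.2, cutadapt, RSEM 1.2.3 and build Zv9 were used, with no role given for each, and the sources used here do not give the scaling method. Within each library 100% of the deposited signal values were whole multiples of the worth of 1 read, so reads were recovered for count tests. Differences were tested with limma 3.58.1 (trend) in R 4.3.3 on log2(value + 1), with 4 group means over all 16 libraries and Benjamini-Hochberg adjustment over 14500 genes (12 residual degrees of freedom). Such fold changes understate those of low genes, and 15 of 37 carriers averaged under 10 units. The edgeR 4.0.16 quasi-likelihood test on recovered reads called 3517 genes higher and 3224 lower in WT, and 3570 and 3193 in KO. DESeq2 1.42.0, limma voom, other scalings, pseudocounts, a filter, a stricter threshold, a replicate block and left-out libraries were the other alternatives. The labels call the 4 libraries of a group biological replicates of 3 pooled hearts. No pair of libraries in a group agreed within sampling noise (chi-square per degree of freedom 6.698 to 18.8).

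Members, gene lists, tests and the choice of named genes were set with earlier results of these data known. Values per library were given for the 5 largest changes each way without overlap, for genes called between genotypes and for unequal duplicates. Others were added by role after their values were seen. The part of that rule on levels per length was not applied, because transcript lengths were not used here. Ranking of levels between genes and sequences of carriers were not analysed here. RefSeq annotation matched 28 carriers. Of these slc25a3, slc25a10 and slc25a47 were matched by a synonym and are listed there as slc25a3b, slc25a10b and slc25a47a.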

Additional observations from a re-analysis of the deposited data

Results flagged for a closer look

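In 5 of 148 groups of 4 libraries, 1 library stood far from the other 3 by Dixon's test, and chance flags about 1 in 20 groups. The glutamate carrier slc25a18 read 2.45 units in WT control library 3, against 3.65 to 3.71 in the other 3. The ATP-Mg carrier slc25a23a read 9.73 in WT control library 1, against 6.31 to 6.33, and its WT fall did not pass without that library. The basic amino acid carrier slc25a29 read 1.98 in WT control library 2, against 3.54 to 3.79. The ADP/ATP carrier slc25a5 read 16528 in KO control library 1, against 18659 to 18836. The carrier slc25a55b read 17 units in WT control library 4, against 9.88 to 10.9, and its WT fall passed without that library.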

How the results depend on the processing

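None of the 38 called changes reversed in the 28 settings run, of which the filter on low values kept 29 changes. With library totals and no composition correction, 11 were lost, giving 5 higher and 10 lower carriers in WT and 1 lower in KO among injured hearts. Over all genes 0.428% were then lower in KO among injured hearts. An adjusted p threshold of 0.01 lost 4 called changes and left 1 higher in WT. Those lost were ucp2 and slc25a23a in WT, and slc25a25 ENSDARG00000010572 and slc25a32 ENSDARG00000026835 in KO. Over all 14500 genes 2741 were then higher and 2243 lower in WT, and 2813 and 2167 in KO. Among the 22 carriers averaging at least 10 units, 14 were lower in WT and 9 in KO after injury, beside 31.3% and 30.5% of the 8222 genes kept. Under this filter 1 carrier was higher in KO among injured hearts, beside 0.681% of the genes kept. DESeq2 called 2 lower in KO control, and 1 higher and 1 lower in KO among injured hearts. The edgeR test and limma voom each called 1 higher there. Over all genes DESeq2 called 273 of 13086 lower in KO control, and 136 higher and 79 lower of 12805 in KO among injured hearts. There edgeR called 55 and limma voom 38 of 14500 genes higher. Leaving out 1 library gave 1 to 3 higher and 16 to 19 lower in WT, 3 to 4 higher and 13 to 16 lower in KO, and 0 to 1 higher and 1 to 2 lower in KO control. It gave 0 among injured hearts and for the difference of responses. Over all 14500 genes these fits gave 3189 to 3526 higher and 2801 to 3158 lower in WT, and 3316 to 3692 and 2799 to 3303 in KO. In KO control 18 to 99 genes were higher and 58 to 262 lower, and among injured hearts 10 to 51 and 5 to 40. For the difference of responses 0 to 3 genes were higher and 0 lower. With a replicate block the counts were 2 higher and 17 lower in WT, 4 and 14 in KO and 1 lower in KO control, and no call was lost. Over all genes that block gave 3518 higher and 3189 lower in WT, 3694 and 3262 in KO, and 82 and 207 in KO control. Libraries sharing a number had deviations correlated at -0.0539 to 0.189, under 0.1 in 12 of 16 pairs. Correlations between libraries with unlike numbers were not computed, so these values do not settle whether the numbers pair libraries. Carriers with few reads, such as slc25a18 at 9 to 32 a library, have wide counting error, while slc25a4, at 0 to 101, also varied widely between libraries of a group. The causes of these shifts were not tested.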
